A study of Rattus norvegicus with 12 samples.

Results

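Transcripts of 10 macrophage markers were followed in the rat pubocaudalis (a muscle of the pelvic floor) after simulated birth injury (SBI) with or without lactation. They were chosen by gene symbol: Cd163, Mrc1, Lyve1 and Folr2, which mark resident-type macrophages, and Csf1r, Adgre1, Msr1, Mpeg1, Fcgr1a and Tyrobp, which are general or inflammatory macrophage markers. All 10 were found among the 30206 genes of the count table, and all 10 were among the 14599 genes that passed the low-count filter and were tested. The animals were 3-month-old female Sprague-Dawley rats, and every group carried the same injury, a distension of the vagina with a balloon in late pregnancy. Pups were taken away after delivery in the non-lactating groups. In the lactating groups they were nursed up to the collection of muscle at 1 week, or up to 3 weeks, the time of weaning. Muscle was collected at 1 week (1wk SBI and 1wk SBI + Lac) or at 3 weeks (3wk SBI and 3wk SBI + Lac). Messenger RNA of 2 rats was pooled for each library, which turned 6 rats per group into 3 libraries. Every n is therefore a number of pools, and p-values measure the spread between these pools, which may in part be technical. No uninjured library was analysed here, so all comparisons are among injured muscles.

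Skeletal muscle holds resident macrophages, many of them around vessels and in the connective tissue between fibers, and injury brings in monocytes from blood that become macrophages. Resident-type cells are recognised by scavenging and endocytic receptors such as CD163, the mannose receptor, LYVE1 and the folate receptor beta. CSF1R, the receptor for the growth factor that keeps macrophages alive, and the DAP12 adaptor encoded by Tyrobp are shared by resident and recruited cells, and the high-affinity Fc receptor encoded by Fcgr1a is raised in inflammatory macrophages. In bulk tissue, fewer macrophages and less of a transcript per macrophage cannot be told apart.

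Total counts ranged from 10082734 to 75634391 per library, and levels below are normalized CPM, the depth-corrected unit of counts. In every library the summed level of 7 skeletal muscle fiber genes, which cannot tell the pubocaudalis from other skeletal muscles, was at least 71500 CPM. That fiber sum was 71500 to 115000 CPM in 1wk SBI, 113000 to 134000 in 1wk SBI + Lac, 110000 to 148000 in 3wk SBI and 157000 to 182000 in 3wk SBI + Lac, so the lactating and non-lactating ranges overlapped at 1 week and not at 3 weeks. None of the 7 genes was called for lactation at either week, against 0.253% and 0.74% of all genes. All 7 had a log2 fold change (lactating over non-lactating) above 0 at 1 week (median 0.50), and 5 of 7 at 3 weeks (median 0.29). The edgeR unadjusted p was under 0.05 for 5 and 1 of the 7, against 18.9% and 21.1% of all genes. The part of muscle fiber RNA in the values below was not tested. The library 3wk SBI replicate 3 stood apart. All 10 markers were higher in it than the mean of the other 2 libraries of its group, by 1.37 times for Fcgr1a to 3.82 times for Adgre1 (median 1.87), while the median ratio over all genes tested was 0.983. It was also the deepest library, and each 3-week marker value is given with and without it. The plot of the markers by library shows these values for every pool.

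**Figure D1:**
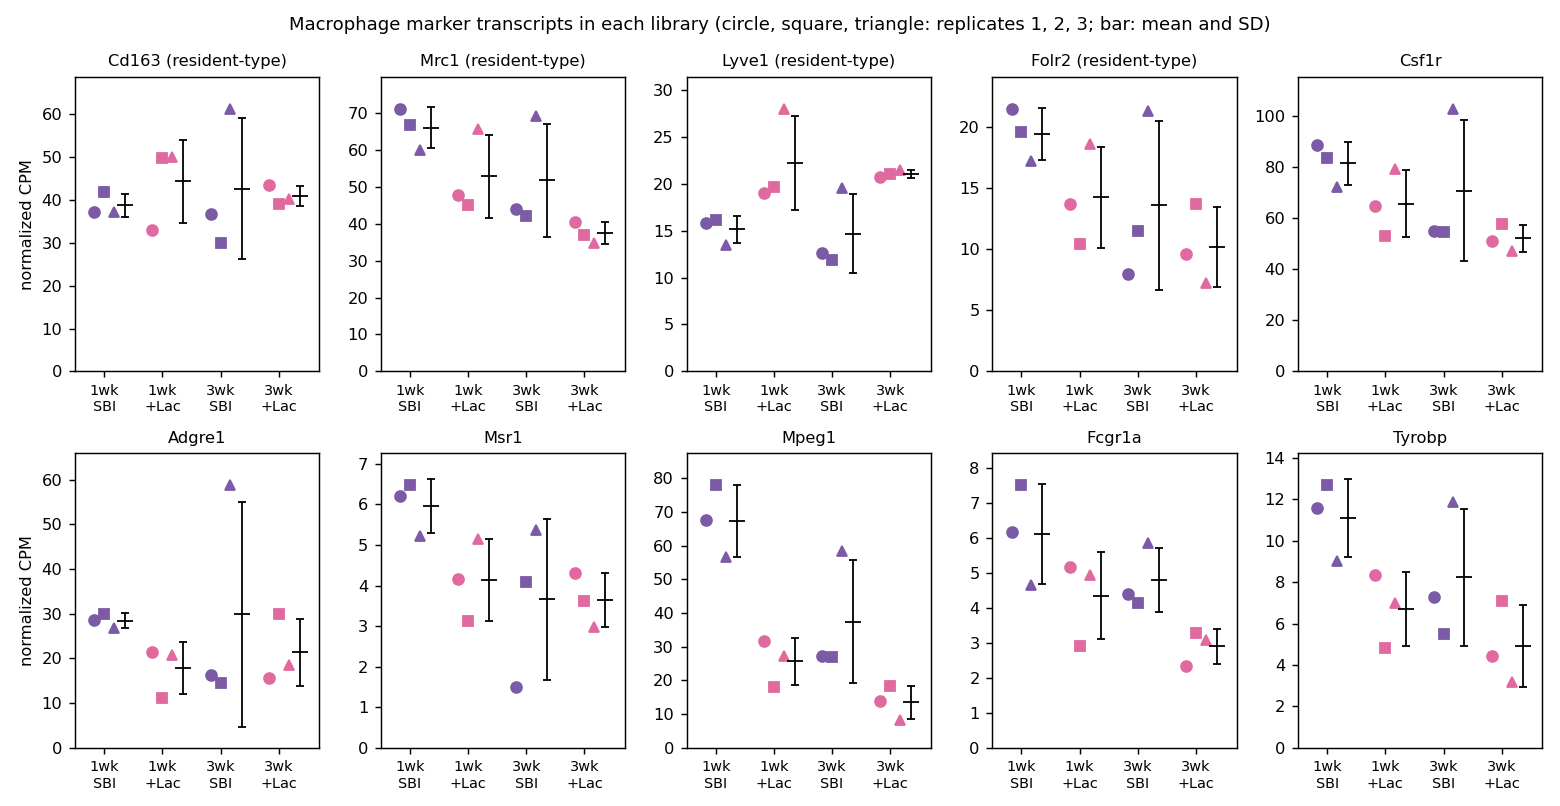
Normalized CPM of each macrophage marker (y axis, from 0) in the 12 libraries, by group on the x axis, where circles, squares and triangles are replicates 1, 2 and 3, and the bar is the mean with the SD of 3 pools. Lyve1 was higher and Mpeg1 lower in each lactating pool than in each non-lactating pool of the same week, and the triangle of 3wk SBI lies above the rest of its group for every marker.

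Promoter sequences are shown for the pair of markers with the clearest opposite values, Lyve1 and Mpeg1, and for Mrc1 and Adgre1, which carry matches to the core motif of PU.1, the transcription factor on which macrophage development depends. The 250 bases before the start of each gene were taken from RefSeq (rat build GRCr8), in which 7 of the 10 markers had an entry. Msr1, Fcgr1a and Tyrobp had none. The motif searched was GAGGAA on both strands, read as TTCCTC when it lies on the other strand, and matches are in capitals. It was present before 3 of the 7 markers (Mrc1, Csf1r and Adgre1) and in 23.2% of the 27457 promoters of the same length. Mrc1 had matches starting 180 and 35 bases before the start, and Adgre1 had 1 match starting 207 bases before it. No match was found in the windows of Cd163, Lyve1, Folr2 and Mpeg1, which says only that these letters are not there.
Lyve1 (chr1:174410978-174411227, minus strand): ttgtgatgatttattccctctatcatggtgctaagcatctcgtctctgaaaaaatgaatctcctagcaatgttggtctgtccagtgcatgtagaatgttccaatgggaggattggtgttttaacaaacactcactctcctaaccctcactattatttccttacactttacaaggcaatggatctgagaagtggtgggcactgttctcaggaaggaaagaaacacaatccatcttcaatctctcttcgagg
Mpeg1 (chr1:218876644-218876893, plus strand): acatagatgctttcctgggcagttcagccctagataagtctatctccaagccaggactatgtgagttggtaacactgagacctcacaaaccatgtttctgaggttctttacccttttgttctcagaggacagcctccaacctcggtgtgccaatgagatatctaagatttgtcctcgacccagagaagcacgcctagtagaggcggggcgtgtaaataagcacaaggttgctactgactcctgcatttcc
Mrc1 (chr17:82157475-82157724, plus strand): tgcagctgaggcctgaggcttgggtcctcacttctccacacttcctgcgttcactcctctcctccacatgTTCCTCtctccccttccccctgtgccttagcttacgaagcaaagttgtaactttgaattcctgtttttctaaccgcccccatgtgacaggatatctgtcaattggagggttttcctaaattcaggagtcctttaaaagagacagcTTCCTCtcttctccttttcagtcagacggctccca
Adgre1 (chr9:2329190-2329439, plus strand): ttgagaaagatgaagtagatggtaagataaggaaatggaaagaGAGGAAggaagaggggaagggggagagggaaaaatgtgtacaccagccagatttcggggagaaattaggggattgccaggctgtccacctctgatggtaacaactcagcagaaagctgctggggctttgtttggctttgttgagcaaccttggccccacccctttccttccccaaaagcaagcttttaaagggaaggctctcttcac

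The first comparison asked whether macrophage markers differed between lactating and non-lactating rats 1 week after injury. No marker passed the study's cutoffs (adjusted p under 0.05 and absolute log2 fold change over 1), but they did not lie on the same side of 0. The 6 general and inflammatory markers all had log2 fold changes (lactating over non-lactating) below 0, with a median of -0.60, and the 4 resident-type markers were split, 2 below and 2 above, with a median of -0.06. Over all genes tested 50.5% were below 0 and the median was -0.004. The edgeR quasi-likelihood test called 0 of 10 markers, against 0.253% of all genes, and 3 of 10 had an unadjusted p under 0.05 (Lyve1, Mpeg1 and Tyrobp), against 18.9% of all genes. Groups did not overlap for 4 markers that were lower with lactation (Adgre1, Msr1, Mpeg1 and Tyrobp), against 14.1% of all genes, and for 1 that was higher (Lyve1), against 14.3%.

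Mpeg1, which encodes the pore-forming protein perforin-2 of macrophages, had the lowest fold change of the 10. Its normalized CPM was 67.5, 78.0 and 56.6 in 1wk SBI and 31.8, 18.1 and 27.1 in 1wk SBI + Lac. The lowest non-lactating pool thus lay above the highest lactating pool. The group means were 67.3 ± 10.7 and 25.7 ± 6.94 CPM (SD, n = 3), a log2 fold change of -1.39 ± 0.35 (SE, 95% interval -2.16 to -0.62) with an edgeR adjusted p of 0.0816. Mpeg1 was called when edgeR was fitted on the 6 libraries of 1 week alone (adjusted p = 0.033, 0.769% of genes called) and by DESeq2 on all libraries (adjusted p = 0.0191, 0.94% called) or on those 6 (adjusted p = 1.73e-08, 1.72% called). Its call at 1 week therefore depended on the tool and on the libraries in the model.

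Lyve1 encodes a hyaluronan receptor of perivascular resident macrophages that lymphatic endothelium also makes. It stood at 15.8, 16.1 and 13.5 CPM in 1wk SBI and at 19.0, 19.6 and 28.0 CPM in 1wk SBI + Lac. Every lactating pool was above every non-lactating pool. The means of 15.1 ± 1.45 and 22.2 ± 5.01 CPM (SD, n = 3) gave a log2 fold change of 0.55 ± 0.18 (SE, 95% interval 0.17 to 0.93), and the edgeR adjusted p was 0.119. DESeq2 on the 6 libraries gave an adjusted p of 0.0284 for Lyve1, with a fold change under the study's cutoff. In that fit 4 of 10 markers passed the adjusted p alone (Lyve1, Mpeg1, Tyrobp at 0.0239 and Adgre1 at 0.0349), against 7.12% of genes. The summed CPM of 6 lymphatic endothelial genes was 32.9 to 41.6 in 1wk SBI and 33.4 to 36.6 in 1wk SBI + Lac, and none of the 6 was at 0. None was called, 4 of 6 were above 0, and their median log2 fold change was 0.09. Ccl21, a chemokine of lymphatic vessels, had 2.57 ± 0.602 and 4.22 ± 0.890 CPM (SD, n = 3), without overlap (log2 fold change 0.70, adjusted p = 0.453). Prox1, a transcription factor of lymphatic cells, had 0.29 (adjusted p = 0.589, and -0.18 with all libraries thinned to equal depth), and Pdpn, podoplanin, had -0.36 (adjusted p = 0.267). The part of lymphatic cells in the Lyve1 values was not tested.

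The other resident-type receptors overlapped between groups at 1 week. Cd163, the receptor that clears haptoglobin bound to hemoglobin, was at 37.2, 41.9 and 37.3 CPM without and 33.1, 49.8 and 50.1 CPM with lactation. Its log2 fold change of 0.19 ± 0.22 (SE, adjusted p = 0.671) was smaller than its SE and changed sign with the scaling: with library totals alone it was -0.06, where the median of all genes was -0.25. Mrc1, the mannose receptor, was at 71.2, 66.8 and 60.1 CPM without and 47.7, 45.1 and 65.7 CPM with lactation (log2 fold change -0.32 ± 0.18 SE, adjusted p = 0.344). In Mrc1 a single lactating pool, replicate 3, reached the non-lactating range. Folr2, the folate receptor beta, ran from 17.2 to 21.5 CPM without and from 10.4 to 18.6 CPM with lactation (log2 fold change -0.45 ± 0.32 SE, adjusted p = 0.469).

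Among the general markers, Tyrobp, whose product DAP12 carries the signal of several activating receptors, was at 11.6, 12.7 and 9.04 CPM in 1wk SBI and at 8.36, 4.81 and 7.00 CPM in 1wk SBI + Lac. The pools did not overlap, and the log2 fold change was -0.72 ± 0.30 (SE, adjusted p = 0.216). Adgre1, which encodes the F4/80 antigen, was at 28.6, 30.0 and 26.7 CPM without and 21.5, 11.1 and 20.7 CPM with lactation, without overlap (log2 fold change -0.67 ± 0.52 SE, adjusted p = 0.510). Msr1, a scavenger receptor for modified lipoproteins, was lowly expressed, with 5.22 to 6.48 CPM without and 3.12 to 5.14 CPM with lactation (log2 fold change -0.52 ± 0.30 SE, adjusted p = 0.350). Fcgr1a overlapped, with 4.66 to 7.52 CPM without and 2.92 to 5.18 CPM with lactation (log2 fold change -0.49 ± 0.24 SE, adjusted p = 0.288). Csf1r was at 88.8, 83.5 and 72.4 CPM without and 64.7, 53.0 and 79.3 CPM with lactation, with 1 lactating pool in the non-lactating range (log2 fold change -0.31 ± 0.22 SE, adjusted p = 0.461). Ptprc, which encodes the CD45 antigen of all leukocytes, had a log2 fold change of -0.82 (adjusted p = 0.189) in the same pools.

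**Figure D2:**
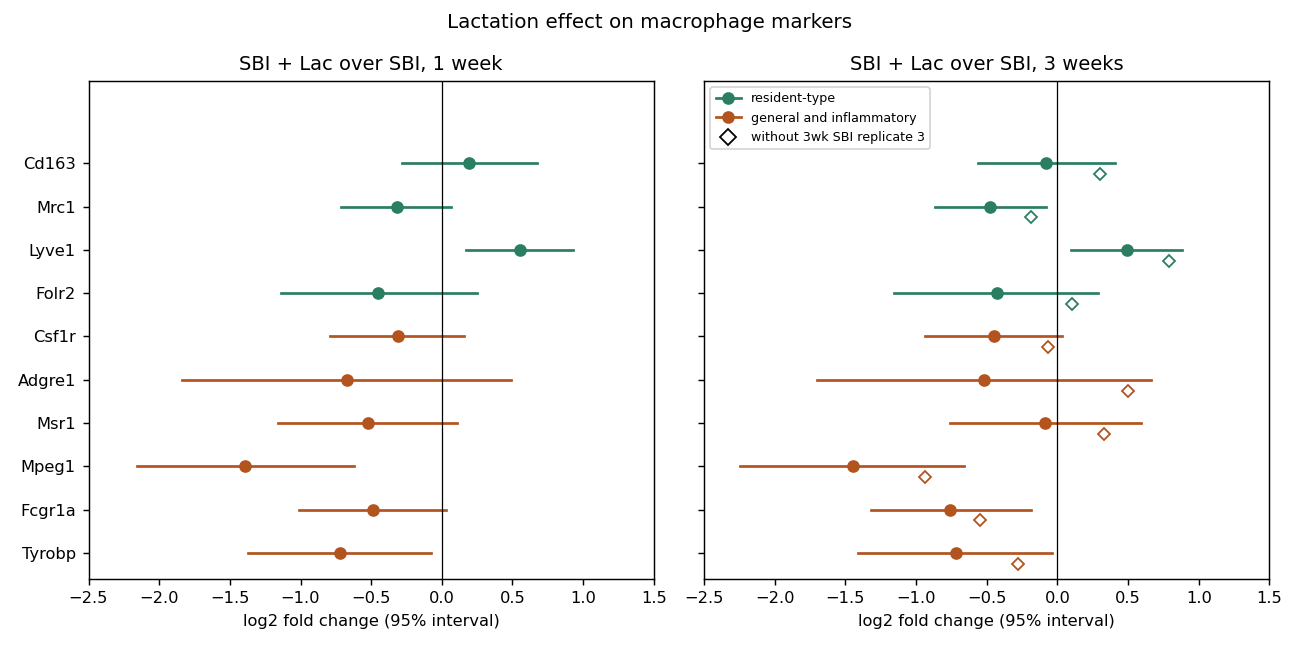
Log2 fold change of SBI + Lac over SBI for each marker (x axis) at 1 week and at 3 weeks, with the 95% interval from edgeR as a line, and open diamonds are the values without 3wk SBI replicate 3. Mpeg1 is far to the left (-1.39 and -1.45) and Lyve1 to the right (0.55 and 0.49) in both panels, and the open diamonds of every marker lie to the right of the filled points.

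The second comparison put the same question at 3 weeks, at the end of lactation. With all libraries, 9 of 10 markers had a log2 fold change below 0 (3 of 4 resident-type, median -0.26, and 6 of 6 general, median -0.62), against 52.3% of all genes and a median of -0.02. EdgeR called 0 of 10 markers, against 0.74% of all genes, and 5 of 10 had an unadjusted p under 0.05 (Mrc1, Lyve1, Mpeg1, Fcgr1a and Tyrobp), against 21.1%. Groups did not overlap for Mrc1, Mpeg1 and Fcgr1a, which were lower with lactation, against 10.4% of all genes, and for Lyve1, which was higher, against 11.9%. Without 3wk SBI replicate 3, only 5 of 10 were below 0 (1 of 4 resident-type, median 0.20, and 4 of 6 general, median -0.18), against 49.6% of all genes. Without that library Adgre1 (0.50) and Msr1 (0.33) were above 0, and Csf1r was at -0.07. Mpeg1 (-0.94), Fcgr1a (-0.55) and Tyrobp (-0.28) stayed below 0, each less so than with all libraries. The size of the low values of the general markers at 3 weeks therefore depended on that library.

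Lyve1 was at 12.6, 11.9 and 19.5 CPM in 3wk SBI and at 20.7, 21.0 and 21.5 CPM in 3wk SBI + Lac. All lactating pools were above all non-lactating pools, including the third 3wk SBI pool, in which Lyve1 was high for its group. The log2 fold change was 0.49 ± 0.19 (SE, 95% interval 0.09 to 0.88, adjusted p = 0.149). Without 3wk SBI replicate 3 it was 0.79 (edgeR adjusted p = 0.046, 0.833% of genes passed this cutoff alone), and Lyve1 was the marker that passed there. The lymphatic endothelial sum was 32.0 to 38.3 CPM in 3wk SBI and 22.9 to 39.7 CPM in 3wk SBI + Lac. Of its 6 genes 4 were above 0 and none was called, with a median of 0.22, or 0.02 without replicate 3. Mmrn1, a protein secreted by lymphatic and other endothelium, had a log2 fold change of 0.97 (adjusted p = 0.337, and 0.94 without replicate 3), Ccl21 of 0.44 (adjusted p = 0.662, and 0.04) and Pdpn of -0.45 (adjusted p = 0.172, and -0.19).

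Mpeg1 was at 27.1, 26.9 and 58.4 CPM in 3wk SBI and at 13.9, 18.2 and 8.24 CPM in 3wk SBI + Lac. As at 1 week, the ranges did not overlap. The means of 37.5 ± 18.1 and 13.4 ± 4.98 CPM (SD, n = 3) gave a log2 fold change of -1.45 ± 0.36 (SE, 95% interval -2.25 to -0.66), with an edgeR adjusted p of 0.0621. Mpeg1 was called by DESeq2 on all libraries (adjusted p = 0.00969, 1.21% of genes called) and by edgeR with a stricter count filter (adjusted p = 0.0417, 0.754% called), while DESeq2 on the 6 libraries of 3 weeks gave an adjusted p of 0.0611. Without 3wk SBI replicate 3 the value was -0.94 (adjusted p = 0.194).

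Cd163 was at 36.7, 30.0 and 61.3 CPM in 3wk SBI and at 43.6, 39.0 and 40.2 CPM in 3wk SBI + Lac (log2 fold change -0.08 ± 0.22 SE, adjusted p = 0.878). Both other 3wk SBI pools lay below all lactating pools, and without replicate 3 the value was 0.30 (adjusted p = 0.420). Mrc1 was at 43.9, 42.0 and 69.3 CPM without and 40.6, 36.9 and 34.7 CPM with lactation, without overlap (log2 fold change -0.48 ± 0.18 SE, adjusted p = 0.157, and -0.19 without replicate 3). Folr2 overlapped, with 7.94, 11.5 and 21.3 CPM without and 9.64, 13.7 and 7.25 CPM with lactation (log2 fold change -0.43 ± 0.33 SE, adjusted p = 0.484, and 0.10 without replicate 3).

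Fcgr1a was at 4.40, 4.15 and 5.86 CPM in 3wk SBI and at 2.34, 3.28 and 3.08 CPM in 3wk SBI + Lac, without overlap (log2 fold change -0.76 ± 0.27 SE, adjusted p = 0.124, and -0.55 without replicate 3). These levels rested on few reads in the shallow libraries, 41 counts in 3wk SBI replicate 1 and 28 in 3wk SBI + Lac replicate 3. Tyrobp overlapped, with 7.29, 5.51 and 11.9 CPM without and 4.43, 7.07 and 3.19 CPM with lactation (log2 fold change -0.72 ± 0.32 SE, adjusted p = 0.213, and -0.28 without replicate 3). Csf1r was at 55.1, 54.6 and 103 CPM without and 51.3, 57.8 and 47.3 CPM with lactation (log2 fold change -0.45 ± 0.22 SE, adjusted p = 0.269, and -0.07 without replicate 3). Adgre1 was the marker most raised in replicate 3, at 16.3, 14.4 and 58.8 CPM without and 15.7, 29.9 and 18.5 CPM with lactation, and its log2 fold change went from -0.52 ± 0.52 (SE, adjusted p = 0.605) to 0.50 without that library. Msr1 had 14 counts in 3wk SBI replicate 1, or 1.5 CPM (exact Poisson 95% interval 0.82 to 2.52, for counting error only), against 4.09 and 5.38 CPM in the other non-lactating pools and 2.97 to 4.30 CPM with lactation (log2 fold change -0.09 ± 0.32 SE, adjusted p = 0.907, and 0.33 without replicate 3).

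The lactation effect did not differ detectably between the weeks for any marker. The difference of the effects (3 weeks minus 1 week, log2) lay between -0.27 and 0.44, with edgeR adjusted p of at least 0.999, and 0 of 10 markers had an unadjusted p under 0.05, against 4.42% of all genes. EdgeR called 0.00685% of all genes in this comparison. For Mpeg1 the difference was -0.06 (95% interval -1.15 to 1.02) and for Lyve1 -0.06 (95% interval -0.61 to 0.48). Without 3wk SBI replicate 3 the differences lay between -0.06 and 1.18 (median 0.34), 1 of 10 was below 0 against 49.9% of all genes, and 1 of 10 had an unadjusted p under 0.05 against 8.73%.

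To set resident-type against general markers within each pool, the mean log2 CPM of the 6 general members was subtracted from that of the 4 resident-type members. This balance has no absolute meaning, since genes of different length are averaged, but it does not depend on how libraries are scaled. It was 0.58, 0.46 and 0.65 in 1wk SBI and 0.84, 1.55 and 1.35 in 1wk SBI + Lac. It was 0.95, 0.86 and 0.69 in 3wk SBI and 1.44, 1.10 and 1.48 in 3wk SBI + Lac. At both weeks each lactating pool was above each non-lactating pool. Replicate 3 was the lowest of the 3wk SBI pools on this measure. With the log2 of the summed CPM of each set it was at -0.50, against -0.15 and -0.20 in replicates 1 and 2. The means were 0.57 ± 0.10 and 1.25 ± 0.37 at 1 week and 0.83 ± 0.13 and 1.34 ± 0.21 at 3 weeks (SD, n = 3), differences of 0.68 and 0.51 log2 units, or 0.44 at 3 weeks without replicate 3. No test was made, because the members had been chosen with results of these data known.

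**Figure D3:**
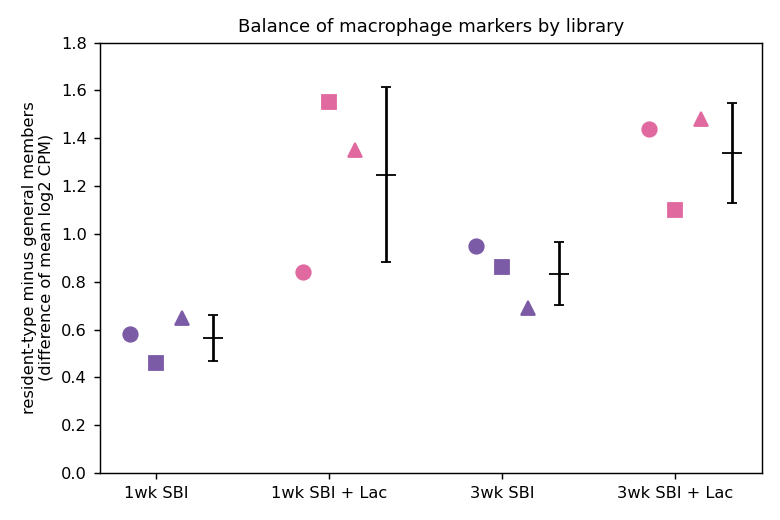
Mean log2 CPM of the 4 resident-type markers minus that of the 6 general markers (y axis) in each of the 12 libraries, by group, where circles, squares and triangles are replicates 1, 2 and 3, and the bar is the mean with the SD of 3 pools. The lactating pools lie between 0.84 and 1.55 at 1 week and between 1.10 and 1.48 at 3 weeks, above the non-lactating pools of the same week (0.46 to 0.65 and 0.69 to 0.95).

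Lyve1 and Mpeg1 carried much of that shift. Without Lyve1 the balance differed by 0.49 at 1 week, where the groups then overlapped, and by 0.31 at 3 weeks, where they did not. Without Mpeg1 it differed by 0.54 at 1 week without overlap and by 0.33 at 3 weeks with overlap. Set against Csf1r in the same pool, Mpeg1 was lower with lactation by 1.09 log2 units at 1 week (log2 ratios -0.40 to -0.10 without and -1.55 to -1.03 with lactation), and the log2 ratio differed by -1.07 at 3 weeks (-1.02 to -0.82 and -2.52 to -1.67). Lyve1 against Csf1r was higher by 0.86 at 1 week (-2.49 to -2.37 and -1.77 to -1.44) and by 0.95 at 3 weeks (-2.40 to -2.14 and -1.46 to -1.13). None of these 4 sets of ratios overlapped between lactating and non-lactating pools. Mrc1 against Csf1r differed by -0.01 and -0.05 with overlapping ranges, and Cd163 against Csf1r by 0.50 with overlap at 1 week and 0.39 without overlap at 3 weeks. Folr2 against Csf1r differed by -0.16 at 1 week without overlap (-2.09 to -2.05 without and -2.34 to -2.10 with lactation). At 3 weeks Folr2 against Csf1r differed by 0.04 with overlap. The resident-type markers thus did not move as a block. The ratio of Lyve1 to Mpeg1 differed by 1.95 at 1 week and by 2.02 at 3 weeks. It was bound to be the widest, since these markers had the highest and the lowest fold change of all members at both weeks.

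Levels at 3 weeks were also set against 1 week within each feeding group. The 1-week columns hold whole counts while 26.6% to 44% of the 3-week values carry decimals, so time and the way of counting cannot be told apart here, and these comparisons share their libraries with those above. Without lactation 8 of 10 markers were below 0 (all genes 51.0%), edgeR called 0 of 10 against 1.46% of all genes, 1 of 10 had an unadjusted p under 0.05 (all genes 21.2%), and none of the 10 was free of overlap (all genes 11.4% lower and 10.2% higher). Mpeg1 had a log2 fold change of -0.82 ± 0.34 (SE, adjusted p = 0.202) and Mrc1 of -0.34 ± 0.18 (SE, adjusted p = 0.305). Without 3wk SBI replicate 3, Mpeg1 was called at -1.32 (adjusted p = 0.0194, 3.75% of genes called), and Mrc1 (-0.62), Csf1r (-0.57) and Folr2 (-0.98) passed the adjusted p alone, as did 14.1% of all genes. With lactation 9 of 10 were below 0 (all genes 52.3%), 0 of 10 were called against 0.774%, and 3 of 10 had an unadjusted p under 0.05 (all genes 18.1%). Mpeg1 there had a log2 fold change of -0.88 ± 0.36 (SE, adjusted p = 0.225), and Mrc1, at -0.50 ± 0.18 (SE, adjusted p = 0.170), was the marker whose ranges did not overlap between weeks, against 14.7% of all genes that were lower without overlap. The balance differed by 0.27 between weeks without lactation, where groups did not overlap, and by 0.09 with lactation, where they did. Without lactation the groups overlapped in other forms of the balance: summed CPM of each set (0.24), Csf1r and Tyrobp as the only general markers (0.12) and without Mpeg1 (0.18). They stayed apart without Lyve1 (0.21) and with a prior count of 0.5 (0.27).

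Among the genes of the other lists, described next for lactation, 5 were called between weeks without lactation, all lower at 3 weeks. Over all genes tested, 1.46% were called in that comparison, in either direction. Runx1, a transcription factor active upstream of Csf1r, had -2.08 (adjusted p = 0.00819, and -1.98 without 3wk SBI replicate 3). Gpnmb, a glycoprotein of lysosome-rich macrophages, had -1.51 (adjusted p = 0.00428, and -1.58), and Spp1, which encodes osteopontin, had -2.58 (adjusted p = 0.00785, and -2.20). Vcan, a matrix proteoglycan also made by monocytes, had -1.04 (adjusted p = 0.021, and -1.42), and Lum, a collagen-binding protein of fibroblasts, had -1.01 (adjusted p = 0.0453, and -1.36). The calls of Vcan and Lum were each lost in 4 of 6 fits that left out a library (adjusted p up to 0.11 and 0.202). With lactation, where 0.774% of all genes were called, Runx1 had -1.86 (adjusted p = 0.0232) and Gpnmb -1.22 (adjusted p = 0.0136). These calls were lost in 5 and in 2 of 6 such fits (adjusted p up to 0.12 and 0.0689).

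Genes of the same pathways and cell types were read from lists chosen by function, with results of these data known. Of 13 monocyte and recruited macrophage genes, 13 had log2 fold changes below 0 at both weeks (medians -0.63 and -0.66, and -0.35 at 3 weeks without 3wk SBI replicate 3), and edgeR called none. Over all genes the shares below 0 were, as above, 50.5% and 52.3%, those called 0.253% and 0.74%, and those with an unadjusted p under 0.05 18.9% and 21.1%. In this list S100a4, a calcium-binding protein of motile cells, had -1.32 at 1 week (adjusted p = 0.101), and Itgam, the CD11b integrin chain, had -0.76 at 3 weeks (adjusted p = 0.0983, and -0.38 without replicate 3, adjusted p = 0.437). Of 12 further resident-type genes, 7 were below 0 at 1 week and 8 at 3 weeks (medians -0.11 and -0.15, and 0.10 without replicate 3), with none called. F13a1, a coagulation factor subunit made by resident macrophages, had 34.1 ± 1.72 CPM without and 47.8 ± 11.4 CPM with lactation at 1 week (SD, n = 3), without overlap (log2 fold change 0.49, adjusted p = 0.180). At 3 weeks its ranges overlapped, at 32.2 to 49.6 and 32.2 to 45.0 CPM. Other genes of the list lay on the other side at 1 week, with Igf1, a growth factor, at -0.75 (adjusted p = 0.183) and Selenop, a selenium carrier, at -0.35 without overlap (adjusted p = 0.299). Siglec1, a sialic acid receptor, had 15.6 ± 6.17 and 5.78 ± 2.31 CPM at 3 weeks, without overlap (log2 fold change -1.39, adjusted p = 0.0516, and -1.0 without replicate 3).

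The calls among macrophage genes fell in the phagocytic and lipid-handling list, where 10 of 12 genes at 1 week and 9 of 12 at 3 weeks were below 0 (medians -0.63 and -0.80, and -0.70 without replicate 3). Cd68, a lysosomal protein used as a stain for all macrophages, had 29.1 ± 3.83 and 14.9 ± 2.81 CPM at 1 week and 21.1 ± 5.81 and 10.0 ± 1.70 CPM at 3 weeks (SD, n = 3). It fell with lactation at both weeks by the adjusted p (log2 fold change -0.96, adjusted p = 0.0417, and -1.08, adjusted p = 0.015), and at 3 weeks it passed both cutoffs. At 1 week the adjusted p was above 0.05 in 5 of 6 fits that left out a library (up to 0.197). The adjusted p alone was passed by 0.569% of all genes at 1 week and 2.54% at 3 weeks. Without 3wk SBI replicate 3 Cd68 was at -0.80 (adjusted p = 0.0541), and its call by both cutoffs at 3 weeks was lost in 3 of 6 fits that left out a library. The paper counted cells carrying CD68 or CD163 protein in sections of this muscle. At the earlier time point the paper found no significant change in either with lactation. For cells carrying CD45 protein at that time, it described control-like numbers with lactation and numbers above uninjured controls without it. Whether the lower Cd68 RNA came with fewer macrophages was not tested here. Gpnmb was called at both weeks (-1.62, adjusted p = 0.00998, and -1.33, adjusted p = 0.00934) and was the gene of the list still called at 3 weeks without replicate 3 (-1.25, adjusted p = 0.0469). Its call at 1 week was lost without 1wk SBI + Lac replicate 1 (-1.53, adjusted p = 0.0911). Spp1 was called at 1 week (-3.01, adjusted p = 0.0146), and not without lactating replicate 1 (adjusted p = 0.112) or 2 (adjusted p = 0.0725).

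Lists built around the markers' own pathways held few calls. These lists hold some of the markers again. Fcgr1a and Tyrobp are with the Fc receptors, Csf1r is in its pathway, and Cd163, Mrc1 and Msr1 are with the scavenger receptors. Some genes, such as Cd68, Trem2 and Cd44, also recur between lists. The counts below are therefore not independent of the values above. All 16 Fc receptor and DAP12 signalling genes were below 0 at both weeks (medians -0.62 and -0.77, and -0.36 without replicate 3), with 0 called and 8 and 9 of them at an unadjusted p under 0.05, against the shares of all genes given above. Sirpa, an inhibitory receptor of phagocytes, had -0.86 at 1 week (adjusted p = 0.0733), as did Trem2 (-0.86, adjusted p = 0.114), a receptor that signals through DAP12. In the CSF1 receptor pathway 8 of 11 genes at 1 week and 11 of 11 at 3 weeks were below 0 (medians -0.31 and -0.45, and -0.12 without replicate 3), and Irf8, a transcription factor of monocytes and dendritic cells, had -1.41 at 1 week (adjusted p = 0.125). Of 10 scavenger and mannose receptors, 8 and 9 were below 0 (medians -0.37 and -0.28, and -0.11 without replicate 3), and Cd68 was the call. Of 6 genes that handle the cargo of CD163, 4 were below 0 and 2 above at both weeks (medians -0.20 and -0.42, and -0.31 without replicate 3). Slc40a1, the iron exporter ferroportin, had 20.6 ± 4.91 and 11.7 ± 0.282 CPM at 3 weeks (SD, n = 3) and fell by the adjusted p (log2 fold change -0.84, adjusted p = 0.011, and -0.61 without replicate 3, adjusted p = 0.0414), with an adjusted p above 0.05 in 2 of 6 fits that left out a library (up to 0.0544). Hmox1, which breaks down heme, had -0.92 at 1 week (adjusted p = 0.106), and Slc48a1, a heme transporter, had 0.36 without overlap (adjusted p = 0.122). Of 8 hyaluronan genes 6 were below 0 at 1 week (median -0.33) and 3 at 3 weeks (median 0.16, and 0.34 without replicate 3), with none called. Cd44, another hyaluronan receptor, had -0.60 at 1 week (adjusted p = 0.115).

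**Figure D4:**
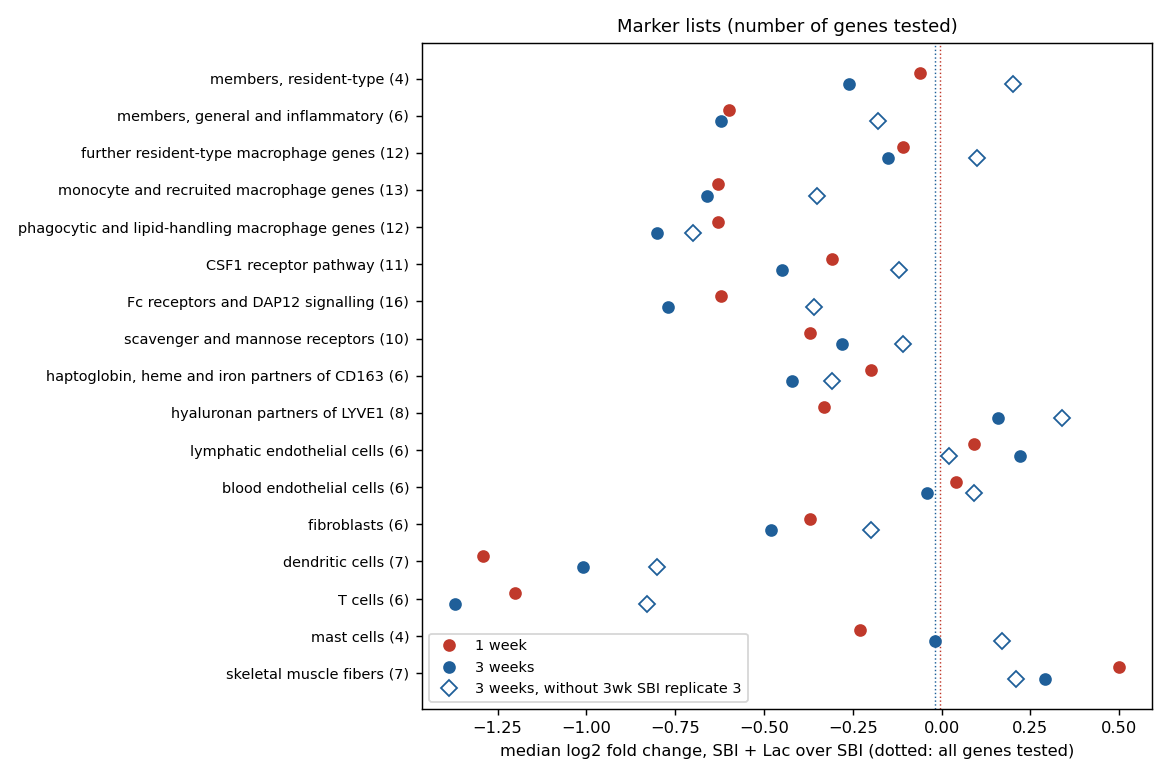
Median log2 fold change of SBI + Lac over SBI (x axis) for each list of genes (y axis, number of genes tested in brackets; lists with under 4 tested genes are left out), at 1 week in red and 3 weeks in blue, where open diamonds are 3 weeks without 3wk SBI replicate 3, and dotted lines are the medians over all genes tested. Lists of recruited and phagocytic macrophages and of Fc receptors lie near -0.6 to -0.8 with all libraries, resident-type lists nearer to 0, and muscle fiber genes above 0. Dendritic cell (-1.29 and -1.01) and T cell (-1.20 and -1.37) lists lie further to the left.

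Markers of other cells were read in the same pools. Fibroblast genes summed to 5850 to 8420 CPM in 1wk SBI, 3500 to 6460 in 1wk SBI + Lac, 2920 to 6550 in 3wk SBI and 1790 to 2540 in 3wk SBI + Lac, and blood endothelial genes to 307 to 322, 302 to 327, 257 to 341 and 251 to 308 CPM. All 6 fibroblast genes were below 0 at both weeks (medians -0.37 and -0.48, and -0.20 without replicate 3), and 3 of 6 blood endothelial genes were (medians 0.04 and -0.04), with none called in either list. Dendritic cell genes had medians of -1.29 and -1.01 (-0.80 at 3 weeks without replicate 3), with Flt3, a growth factor receptor of dendritic cell precursors, called at 3 weeks (-1.54, adjusted p = 0.0408), and T cell genes had medians of -1.20 and -1.37 (-0.83 without replicate 3), with Cd8b called at 3 weeks (-2.48, adjusted p = 0.0485). Both of these calls were lost without 3wk SBI replicate 3 (adjusted p = 0.105 and 0.145) and in 5 of 6 fits that left out a library. Neutrophil genes summed to at most 3.21 CPM in any library, and Elane was at 0 in all of them. The part of these cells in the macrophage marker values was not tested.

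As a description of likeness, each gene with a symbol and at least 1 CPM in a group (12262 genes) was correlated with the mean of the markers over the 12 libraries, after centring on the mean of each week. The genes most like the general members were Il17ra (r = 0.978), Dock2 (0.975), Cd74 (0.973), Actb (0.972) and Nin (0.971). Those most like the resident-type members were Fstl1 (r = 0.942), Plau (0.938), Vasn (0.934), Mgat1 (0.933) and Col14a1 (0.927). The libraries share depth and tissue make-up, and 3wk SBI replicate 3 is among the points, so these values describe these pools only.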

How the data were processed

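Polyadenylated RNA of the pubocaudalis was sequenced from stranded libraries, 12 in all, each a pool of 2 rats. The labels name different rats for each pool, while a legend of the study calls the pools technical replicates. They were treated as separate samples, so p-values may measure technical spread. The authors deposited 1 table of counts per gene for 30206 genes, 4319 of them without a symbol, with no normalization. At 1 week the deposited values are whole counts. At 3 weeks the values that the authors deposited carry decimals from an unnamed step, so they were read as estimated counts and rounded for the tests. Whole counts had been assumed in the design. The submitters' processing notes name Salmon. Version, build and annotation are not given in the sources used here. Columns were matched to samples by the labels. Libraries of a group differed by more than counting noise and were kept as separate samples.

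The test was edgeR 4.0.16 (R 4.3.3; TMM, filterByExpr, robust quasi-likelihood fit of 4 groups over 12 libraries, 14599 genes, Benjamini-Hochberg adjustment). A gene is called at an adjusted p under 0.05 with a log2 fold change beyond 1 in size. Standard errors are the size of the fold change over the square root of F. Normalized CPM are counts over TMM library sizes, and the balance used log2 CPM with a prior count of 2. Total counts per library ran from 10082734 to 75634391, and at few counts the precision is limited by counting. The markers, the other gene lists and the tests were chosen with earlier results of these data known. All 10 markers are described, and from other lists at most the 3 genes with the smallest p per comparison, plus any that was called. Alternatives were upper-quartile and RLE scaling, DESeq2 1.42.0 (on all libraries or those of a time point), no count filter, a filter of 10 counts in each library, fits of the compared libraries alone, a replicate block, each library left out, library sizes without hemoglobin, milk and mitochondrial genes, and other forms of the balance. Equal depth, library totals without a factor and the balance without Mpeg1 were added after seeing the data. No set test was made. Chil3, Cd36, Fcgr2a, Cd163l1, Cd4 and Myh1 were not found by symbol, and Ftl1, with 2 rows, was left out.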

Additional observations from a re-analysis of the deposited data

How the results depend on the processing

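The signs of the marker values at 1 week were stable under every alternative apart from Cd163, which was -0.056 with library totals and no normalization factor, and the fold changes of Mpeg1 and Lyve1 kept their sign in every fit at both weeks. Outside the markers, Prox1 at 1 week became -0.18 at equal depth. With library totals the median of all genes was -0.25 at 1 week and -0.201 at 3 weeks, Lyve1 was 0.31 and 0.29, and calls over all genes were 18 lower and 4 higher at 1 week (24 and 13 with TMM) and 110 and 13 at 3 weeks (78 and 30). The count of markers called at 1 week was 0 in edgeR over all libraries and 1 (Mpeg1) with DESeq2 on all libraries, with DESeq2 on the libraries of the time point and with the libraries compared alone. At 3 weeks it was 1 (Mpeg1) with DESeq2 on all libraries and with at least 10 counts in every library. Between weeks without lactation it ranged from 0 to 1 when a library was left out, the call being Mpeg1 without 3wk SBI replicate 3. The cause of these differences was not tested.

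Over the fits that left out a library, the 3-week value ranged from -0.27 to 0.30 for Cd163, from -0.72 to 0.10 for Folr2, from -0.87 to 0.50 for Adgre1 and from -0.37 to 0.33 for Msr1, the upper end being without 3wk SBI replicate 3 each time, and Msr1 was 0.015 without 3wk SBI + Lac replicate 3. The balance ranged from 0.53 to 0.89 at 1 week, from 0.44 to 0.63 at 3 weeks, from 0.21 to 0.34 between weeks without lactation and from -0.11 to 0.25 with lactation, the last being -0.11 without 1wk SBI + Lac replicate 1 and -0.02 without Mpeg1. With Csf1r and Tyrobp as the general markers, the balance between weeks without lactation was 0.12.

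Replicate numbers are shared between groups but did not pair the libraries: same-numbered pairs correlated at -0.103, -0.154 and -0.155 at 1 week and at -0.050, -0.075 and -0.233 at 3 weeks. For the difference between weeks, Lyve1 was -0.06 and became 0.019 with the replicate block and 0.085 at equal depth, with -0.20 to 0.24 when a library was left out, and Mpeg1 ranged from -0.34 to 0.45. With the replicate block 0 markers were called in every comparison, Mpeg1 was -1.40 (adjusted p = 0.144) and -1.42 (adjusted p = 0.128), and 8 genes were called at 1 week and 64 at 3 weeks.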
